A study of Mus musculus with 6 samples.

Results

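Cathepsins are the proteases of the lysosome, and 10 of their genes are described here in mouse tumors that had received laser light alone or light together with a photosensitizing protein. The genes were taken from the deposited expression table by symbol, as Ctsa, Ctsb, Ctsc, Ctsd, Ctsf, Ctsh, Ctsk, Ctsl, Ctss and Ctsz, and all 10 were among its 21899 genes. RNA was sequenced from 6 samples of tumors grown under the skin of male C57BL/6 mice. These tumors came from LLC-luc cells, a luciferase-expressing derivative of the Lewis lung carcinoma line of that strain. Tumors of the Laser group were irradiated at 620 nm for 10 min without a photosensitizer, and the methods give saline as their injection. Those of the PC-La group were first injected with phycocyanin (PC), a light-absorbing protein of Spirulina, and those of the SePC-La group with selenium-enriched phycocyanin (SePC), 4 h before the same irradiation and once every 5 days per the labels. Each group had 2 samples, all groups shared the laser, and tumors without laser were not analysed here, so that the laser's own effect cannot be told apart. The labels do not say that the 2 samples of a group came from separate mice, and p-values therefore measure only the spread between these samples.

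The lysosome is the acidic compartment in which proteins, lipids and sugars taken up by the cell or delivered by autophagy are broken down. Cathepsins are made as inactive precursors, carried there on mannose 6-phosphate receptors, activated at low pH and restrained by cystatins when they leak into the cytosol. Most are cysteine proteases, while Ctsd is an aspartic and Ctsa a serine protease, and in tumors they are known from the malignant cells as well as from infiltrating macrophages, whose cathepsins process antigens for class II presentation and digest matrix.

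The values were FPKM, reads scaled by exon length and by the depth of the sample, so that levels can be compared between genes per length. Differences between groups are given on the scale of log2(FPKM + 1) with 95% confidence intervals from limma, a linear model fitted here to all genes together, and a gene is called where its unadjusted p was under 0.05. Between 14447792 and 17649489 reads per sample could be recovered from them. The tissue was labelled as lung cancer tissue, and 10 lung and other epithelial markers were examined. Scgb1a1 and Nkx2-1 were listed at 0 in all 6 samples, and Sftpc, Sftpb and Sftpa1 were at 0.369 FPKM or less. The keratins Krt18 and Krt8 averaged 137 and 96.4 FPKM, while Krt19, Cdh1 and Epcam averaged 0.557, 0.617 and 0.0783 FPKM. Among the samples, Laser replicate 2 stood apart with a summed FPKM of 120.8 over 6 skeletal muscle markers, against 0.112 to 16.6 in the other 5. SePC-La replicate 1 had the lowest summed FPKM of both 12 macrophage markers, 511.4, and 10 fibroblast markers, 126.2. For the cathepsins, values that rest on one of these samples are given below with and without it. No values without a sample are given for the cell type markers or for some of the other lysosomal genes.

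The genes lie on 7 chromosomes, and Ctsk and Ctss are neighbours on chromosome 3, with 17424 bases between the end of Ctsk (chr3:95499256-95509362, plus strand) and the start of Ctss (chr3:95526786-95556403, plus strand) in the GENCODE annotation of GRCm38. The submitters' notes name mm9 without its role and the deposited table holds no positions, so these come from the annotation. The 250 bases before the RefSeq start of 3 genes are shown because Ctsk and Ctss are neighbours with different patterns over the samples, whereas Ctss and Ctsl were both lower in SePC-La than in PC-La tumors. They are printed 5′ to 3′ on the strand of the gene, from GRCm38.p6, with motif matches in capitals. The Ctss sequence is chr3:95526536-95526785 (plus strand), that of Ctsk is chr3:95498960-95499209 (plus strand), and that of Ctsl is chr13:64370521-64370770 (minus strand).
Ctss: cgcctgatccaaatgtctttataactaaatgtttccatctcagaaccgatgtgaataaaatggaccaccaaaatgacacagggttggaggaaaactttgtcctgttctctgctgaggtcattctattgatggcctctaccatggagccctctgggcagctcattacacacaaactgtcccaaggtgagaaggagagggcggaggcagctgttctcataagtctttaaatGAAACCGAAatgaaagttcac
Ctsk: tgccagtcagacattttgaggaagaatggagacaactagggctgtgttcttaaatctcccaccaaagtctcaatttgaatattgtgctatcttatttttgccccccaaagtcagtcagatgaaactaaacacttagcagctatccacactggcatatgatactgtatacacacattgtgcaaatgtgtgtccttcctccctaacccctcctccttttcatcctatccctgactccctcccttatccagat
Ctsl: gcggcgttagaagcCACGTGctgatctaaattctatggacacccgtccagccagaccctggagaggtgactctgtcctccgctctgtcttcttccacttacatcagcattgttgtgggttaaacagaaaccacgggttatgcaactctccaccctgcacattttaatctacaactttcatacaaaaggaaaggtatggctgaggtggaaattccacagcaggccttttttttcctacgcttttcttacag

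Windows of 300 bases (250 before and 50 after a start) were at hand for 8 of the 10 genes, with 9 starts, and not for Ctsb and Ctsh. Both strands were searched for 4 motifs. The E-box CACGTG, bound by the TFEB family of lysosomal regulators among other factors, was in 4 of the 9 windows, those of Ctsd, Ctsf, Ctsl and the second Ctsa start, and in 7.15% of all 32851 windows. Its extended form TCACGTGA, which contains CACGTG, was in the Ctsd window and in that second Ctsa window, against 0.974% of all windows. The core GAAANNGAA of interferon response elements was found in the Ctss window alone, 21 bases before the start, and in 8.56% of all windows. TTCNNNGAA, the form bound by STAT factors, was in the Ctsc window, against 8.3% of all. The Ctsk and Ctsz windows and the first Ctsa window held none of these 4 letter strings. The Ctss and Ctsk windows were also low in G and C, at 44% and 43.7%, against a median of 52.7% over all windows and 67.3% for Ctsd. A match describes the letters and not a bound site.

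Together the cathepsins were abundant transcripts in every sample. Their summed level was 1048 and 1126 FPKM (Laser), 1260 and 1303 FPKM (PC-La) and 998.9 and 1186 FPKM (SePC-La), which was 0.329% to 0.465% of the summed FPKM of all genes. Both PC-La samples were thus above the other 4, and the Laser and SePC-La ranges overlapped. In such bulk samples fewer cells of a type and less RNA per cell cannot be told apart. Ctss led with a mean of 328.1 FPKM over the 6 samples and ranked 105 among the 21899 genes, followed by Ctsb (238 FPKM), Ctsl (219.9 FPKM) and Ctsz (184.9 FPKM). A middle group of Ctsd (60.4 FPKM), Ctsc (57 FPKM) and Ctsa (43.3 FPKM) stood below them, then Ctsh (14.4 FPKM) and Ctsk (7.34 FPKM). Ctsf was the lowest at 0.322 FPKM, on 6 to 38 recovered reads per sample.

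**Figure D1:**
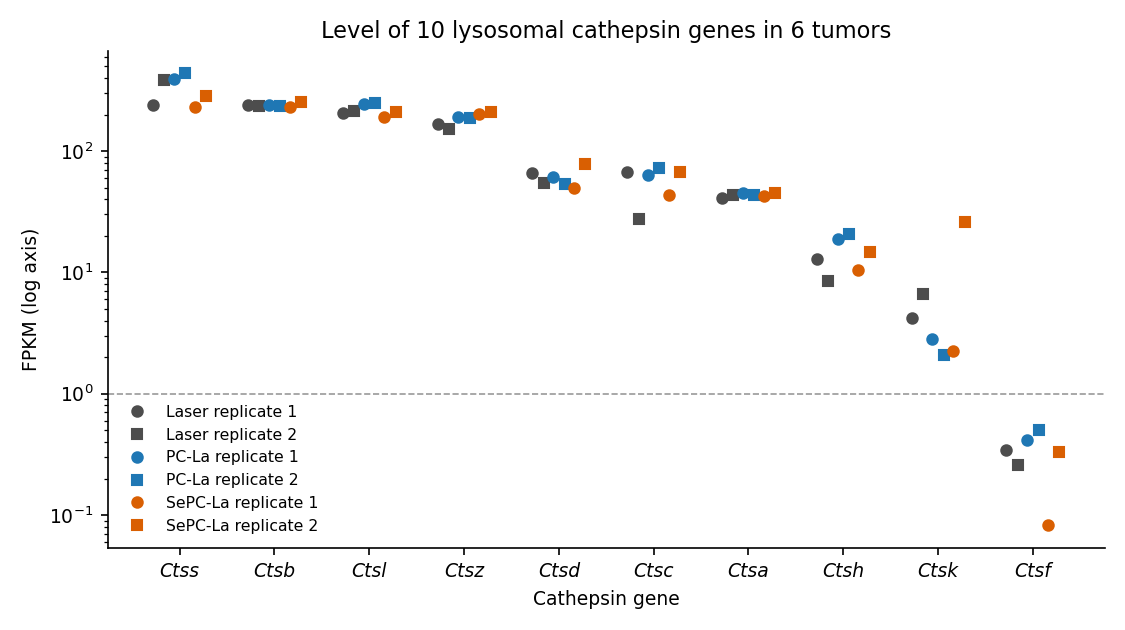
FPKM (log axis) of the 10 cathepsin genes in each of the 6 tumor samples, ordered by mean, with circles for replicate 1, squares for replicate 2 and a dashed line at 1 FPKM, the minimum mean for testing. Ctsk in SePC-La replicate 2 (26 FPKM) and Ctsc in Laser replicate 2 (27.8 FPKM) lie away from the other samples of their gene, and Ctsf is below 1 FPKM in all 6.

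Neighbours in this order whose sample ranges overlapped were Ctss and Ctsb, Ctsb and Ctsl, Ctsl and Ctsz, Ctsd and Ctsc, Ctsc and Ctsa, and Ctsh and Ctsk. Gaps between ranges separated Ctsz from Ctsd, Ctsa from Ctsh and Ctsk from Ctsf. The makeup of the family differed between samples mainly in the share held by Ctss, which was 22.98% to 34.3% of the summed cathepsin FPKM, and of Ctsz, which was 13.5% to 20.1%.

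Ctss (cathepsin S) trims the invariant chain for class II presentation and stays active at neutral pH. It was at 241.8 and 386.2 FPKM (Laser), 391.6 and 436.9 FPKM (PC-La) and 229.6 and 282.5 FPKM (SePC-La). The PC-La samples were the highest 2 of the 6, no SePC-La sample reached them, and the Laser samples spanned most of the range. The level in SePC-La was 0.618 of that in PC-La, a log2 difference of -0.70 ± 0.24 (SE; 95% confidence interval -1.28 to -0.12; limma, unadjusted p = 0.0251, Benjamini-Hochberg adjusted p = 0.164). Against Laser, PC-La differed by 0.44 (interval -0.14 to 1.01) and SePC-La by -0.26 (interval -0.84 to 0.32) on the log2 scale, neither passing the test. Both values rest on which Laser sample is used. Without Laser replicate 2 the PC-La difference was 0.77, which passed the test, and that of SePC-La turned to 0.07, while without Laser replicate 1 they were 0.10 and -0.60, of which the latter passed.

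Ctsl (cathepsin L) is a general lysosomal endopeptidase that also processes the invariant chain in some cells. Over the samples it followed Ctss in part, without the wide gap between the Laser samples. Its levels were 207.8 and 214.5 FPKM (Laser), 245.5 and 250.3 FPKM (PC-La) and 191.3 and 209.9 FPKM (SePC-La). Again the PC-La samples were the highest, here with replicates that differed by at most 1.1 times in any group. The SePC-La level was 0.809 of that in PC-La (log2 difference -0.31 ± 0.12 SE, interval -0.59 to -0.02; limma, unadjusted p = 0.0413, adjusted p = 0.193). PC-La was 1.17 times Laser, with a log2 interval of -0.06 to 0.52, and SePC-La 0.95 times Laser. The SePC-La against Laser difference of -0.07 turned to 0.01 under median-ratio scaling and was -0.28 under quantile normalization, which passed (limma, unadjusted p = 0.0365, adjusted p = 0.504). Under median-ratio scaling the difference between SePC-La and PC-La was -0.20 for Ctsl and -0.59 for Ctss, so that both calls were lost. Under quantile normalization it was -0.43 for Ctsl and -0.92 for Ctss, and both calls were kept.

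Ctsh (cathepsin H) is chiefly an aminopeptidase, known from macrophages and from lung epithelium, where it matures surfactant proteins. Its values were 12.97 and 8.56 FPKM (Laser), 18.94 and 20.8 FPKM (PC-La) and 10.38 and 14.8 FPKM (SePC-La). Both PC-La samples lay above the other 4, and the Laser and SePC-La ranges overlapped. The mean was 19.9 ± 1.33 FPKM in PC-La against 10.8 ± 3.11 FPKM in Laser (SD, n = 2 each), 1.85 times higher. On the log2 scale this was 0.85 ± 0.23 (SE; interval 0.29 to 1.42; limma, unadjusted p = 0.0096, adjusted p = 0.705). The call held in the 9 other settings, with values of 0.83 to 0.92, though several of these changed only the error. Leaving out each sample in turn gave values of 0.58 to 1.13, lowest without Laser replicate 2. SePC-La was at 0.633 of PC-La (log2 difference -0.64 ± 0.23 SE; limma, unadjusted p = 0.0321, adjusted p = 0.178) and differed from Laser by 0.21, with an interval of -0.35 to 0.78. Leaving out PC-La replicate 1, PC-La replicate 2 or SePC-La replicate 1 ended the call of SePC-La against PC-La, with values of -0.70, -0.57 and -0.40.

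**Figure D2:**
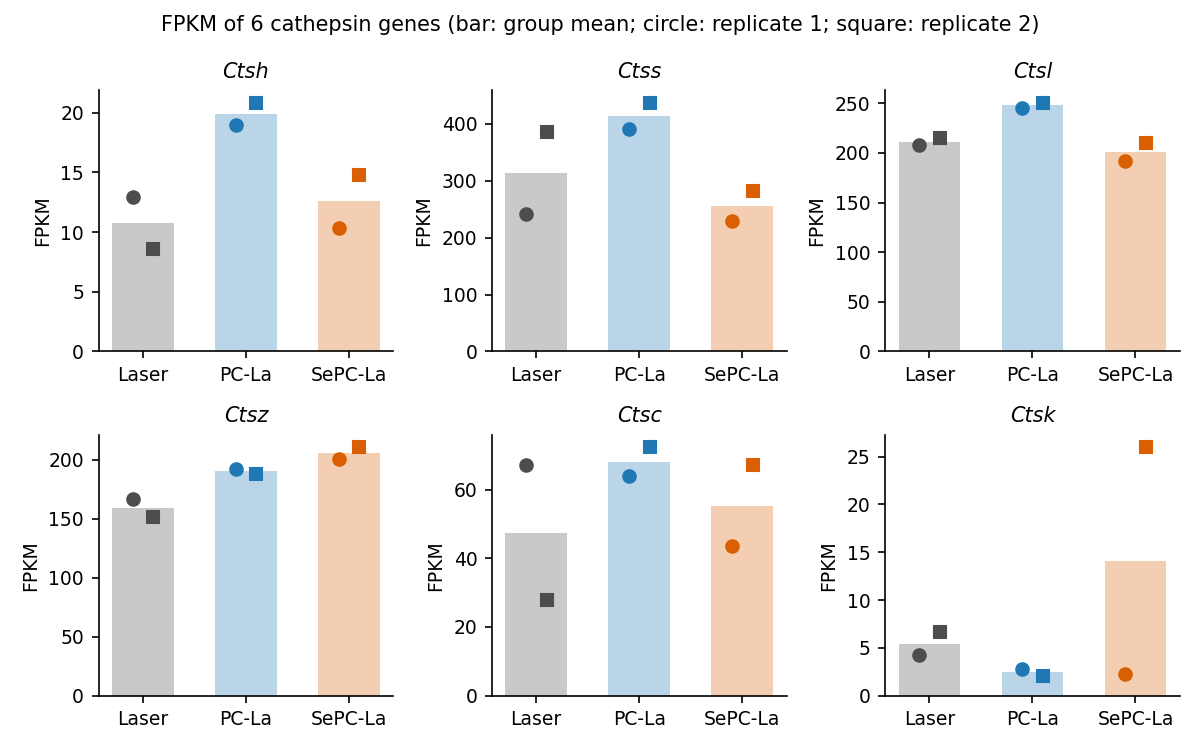
FPKM of 6 cathepsins in the Laser, PC-La and SePC-La tumors, with bars for group means (n = 2), circles for replicate 1 and squares for replicate 2. Ctsh and Ctsl show both PC-La samples above all others, Ctsz is ordered Laser, PC-La, SePC-La without overlap, and Ctsk is set by SePC-La replicate 2 at 26 FPKM.

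Ctsz (cathepsin Z, also called X) removes single residues from the carboxyl end and binds integrins at the cell surface. It was at 166.8 and 151.6 FPKM (Laser), 192.3 and 187.9 FPKM (PC-La) and 200.4 and 210.7 FPKM (SePC-La). The 3 groups did not overlap and were ordered Laser, PC-La, SePC-La. SePC-La was 1.29 times Laser (log2 difference 0.37 ± 0.12 SE, interval 0.08 to 0.66; limma, unadjusted p = 0.0207, adjusted p = 0.382). The steps from Laser to PC-La (0.26, interval -0.03 to 0.55) and from PC-La to SePC-La (0.11, interval -0.18 to 0.40) did not pass the test, and the latter turned to -0.05 under quantile normalization. Quantile normalization also reduced the difference between SePC-La and Laser to 0.16, which did not pass. The call was lost without Laser replicate 2 (0.30), without either PC-La sample (0.37, with a wider error) and without SePC-La replicate 2 (0.33). Nelfcd lies over Ctsz on the opposite strand at a mean of 15.6 FPKM, and without a stated strand setting their shared reads cannot be told apart.

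Ctsb, Ctsd and Ctsa were the members whose group means lay closest together. Ctsb (cathepsin B), an endopeptidase and carboxydipeptidase that can act in lysosomal cell death, was at 240 and 233.3 FPKM (Laser), 237.4 and 235.4 FPKM (PC-La) and 229.5 and 252.4 FPKM (SePC-La). Its highest sample was 1.1 times its lowest, and the groups overlapped in each comparison. The 3 log2 differences were -0.00 for PC-La against Laser, 0.02 for SePC-La against Laser and 0.03 for SePC-La against PC-La, all with an interval of about 0.29 to either side. Under quantile normalization those of SePC-La turned to -0.19 against Laser and -0.11 against PC-La.

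Ctsa (cathepsin A, or protective protein) is a carboxypeptidase that also keeps beta-galactosidase (Glb1) and neuraminidase (Neu1) stable in a complex. It had 40.9 and 43.1 FPKM (Laser), 45.1 and 43.3 FPKM (PC-La) and 42.7 and 44.8 FPKM (SePC-La). The PC-La samples lay just above the Laser samples, a log2 difference of 0.07 with an interval of -0.20 to 0.34. Its partners Glb1 (15.9 to 23.8 FPKM) and Neu1 (5.21 to 7.88 FPKM) did not pass the test in the 3 comparisons either, with Glb1 at -0.28 and Neu1 at -0.30 for SePC-La against PC-La. Pltp and Neurl2 overlap Ctsa, and Fdft1 overlaps Ctsb, each on the opposite strand.

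Ctsd (cathepsin D), the main aspartic protease of the lysosome, had 66 and 54.3 FPKM (Laser), 61.6 and 53.4 FPKM (PC-La) and 49.2 and 77.8 FPKM (SePC-La). The SePC-La samples were both the lowest and the highest of the 6, so the groups overlapped and the intervals were wider than for Ctsb, from -0.62 to 0.50 for PC-La against Laser and from -0.45 to 0.67 for SePC-La against PC-La. Ctsd and Ctsb varied together, with a Pearson correlation of 0.97 over the 6 samples on the log2 scale. That value is a description, since the points share libraries and groups. Ctsl and Ctss (0.88) and Ctsc and Ctsh (0.86) were the next closest pairs among the 9 genes tested.

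Ctsc (cathepsin C, or dipeptidyl peptidase I) activates the granule serine proteases of neutrophils, mast cells and cytotoxic lymphocytes. It was at 67.2 and 27.8 FPKM (Laser), 63.9 and 72.3 FPKM (PC-La) and 43.5 and 67 FPKM (SePC-La). Laser replicate 2 was the lowest sample and 2.42 times below the other Laser sample, and the groups overlapped in the 3 comparisons. PC-La against Laser gave a log2 difference of 0.64 with an interval of -0.44 to 1.72. That difference was 0.02 without Laser replicate 2 and 1.26, which passed, without Laser replicate 1. SePC-La against Laser (0.31) likewise became -0.31 without Laser replicate 2 and 0.94, which passed, without Laser replicate 1.

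Of 7 serine proteases that cathepsin C activates, 4 could be tested and 0 passed in any comparison. The most abundant was Gzmb (granzyme B) with 12.4 and 13.2 FPKM (Laser), 29.1 and 13.3 FPKM (PC-La) and 9.93 and 18.4 FPKM (SePC-La). The groups of Gzmb overlapped between SePC-La and each other group. The neutrophil enzymes Elane and Prtn3 were at 0.728 FPKM or less in the 6 samples.

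Ctsk (cathepsin K) is the collagen-degrading protease of osteoclasts, also known from activated fibroblasts and macrophages. It was at 4.21 and 6.67 FPKM (Laser), 2.83 and 2.08 FPKM (PC-La) and 2.24 and 26 FPKM (SePC-La). SePC-La replicate 2 was 11.6 times the other SePC-La sample, on 686 against 49 recovered reads, and the remaining 5 samples lay between 2.08 and 6.67 FPKM. The log2 difference between SePC-La and PC-La was 1.45 ± 1.02 (SE), with an interval of -1.21 to 4.10 and an adjusted p of 0.412 (limma). Without SePC-La replicate 2 it was -0.08, and without SePC-La replicate 1 it was 2.97, which passed. SePC-La against Laser gave 0.57, which was -0.96 and 2.09 without the same samples in turn, both passing. Both PC-La samples were below both Laser samples (-0.88, interval -3.53 to 1.77).

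Some osteoclast markers were also highest in the sample with high Ctsk. Of the 6 markers examined, Oscar (0.62 FPKM, against 0.276 or less in the other samples), Dcstamp (0.409 FPKM, against 0.15 or less) and Acp5, tartrate-resistant acid phosphatase (14.4 FPKM, against 10.2 or less), peaked in SePC-La replicate 2, the first 2 at low levels. Calcr, a defining osteoclast marker, was at 0 there, and Ocstamp (1.96 FPKM) and Nfatc1 (4.14 FPKM) were each higher in another sample. The summed FPKM of the 6 osteoclast markers was 10.6 and 10 (Laser), 16.1 and 16.3 (PC-La) and 11.6 and 21.5 (SePC-La). The summed fibroblast markers were also higher in SePC-La replicate 2 (646.6) than in replicate 1 (126.2), yet higher still in both PC-La samples (1730 and 1582), whose Ctsk was low. Ctss, next to Ctsk on the chromosome, differed by only 1.23 times between the SePC-La samples. The part of any cell type in the Ctsk value was not tested.

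Ctsf (cathepsin F), another protease of the invariant chain, did not pass the minimum mean of 1 FPKM. Its values were 0.341 and 0.259 FPKM (Laser), 0.419 and 0.504 FPKM (PC-La) and 0.0824 and 0.33 FPKM (SePC-La). The PC-La samples were again the highest. In a fit without the minimum, the log2 differences on the log2(FPKM + 1) scale were 0.17 for PC-La against Laser, -0.11 for SePC-La against Laser and -0.28 for SePC-La against PC-La, where limma gave an adjusted p of 0.276. With 6 reads in SePC-La replicate 1, no firmer statement was possible at this depth.

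The comparison of PC-La with Laser asks what phycocyanin adds to light. Of the 9 cathepsins tested, Ctsh was higher at an unadjusted p under 0.05 and 0 were lower, while 3.38% of the 10853 genes tested were higher and 2.4% lower. The samples of the groups did not overlap for 5 cathepsins that were higher in PC-La (Ctsa, Ctsh, Ctsl, Ctss and Ctsz) and for 1 that was lower (Ctsk). Over all genes 20.4% were higher and 21.6% lower without overlap. The median log2 difference of the 9 was 0.23, against -0.00 over all genes, and fell to 0.099 and 0.11 when Laser replicate 1 or 2 was left out in turn. No cathepsin met the criterion of the study's methods, an absolute log2 fold change above 1 with p under 0.05, which 1.29% of all genes met, and after Benjamini-Hochberg adjustment limma called 0% of all genes in this and in the 2 other comparisons. With Laser replicate 1 left out the count was 3 (Ctsc, Ctsh and Ctsz), with Laser replicate 2 left out it was 2 (Ctsh and Ctss), and with either SePC-La sample left out it was 2 (Ctsh and Ctsk).

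SePC-La against Laser, which shares its Laser samples with the comparison before, asks the same for the selenium-enriched protein. Of the 9 cathepsins Ctsz was higher and 0 were lower, with 4.9% of all genes higher and 7.24% lower. Ctsz was also the member without overlap, in the higher direction, where 15% of all genes were higher and 25.6% lower without overlap. The median log2 difference of the 9 was 0.06, which turned to -0.01 under quantile normalization, against -0.06 over all genes. None met the study's criterion, which 0.682% of genes met. Under quantile normalization the call was Ctsl, lower, in place of Ctsz. Without Laser replicate 1 the calls were Ctsc, Ctss and Ctsz, without SePC-La replicate 1 they were Ctsk and Ctsz, and without SePC-La replicate 2 Ctsk alone. Without Laser replicate 2, or without either PC-La sample, 0 were called.

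**Figure D3:**
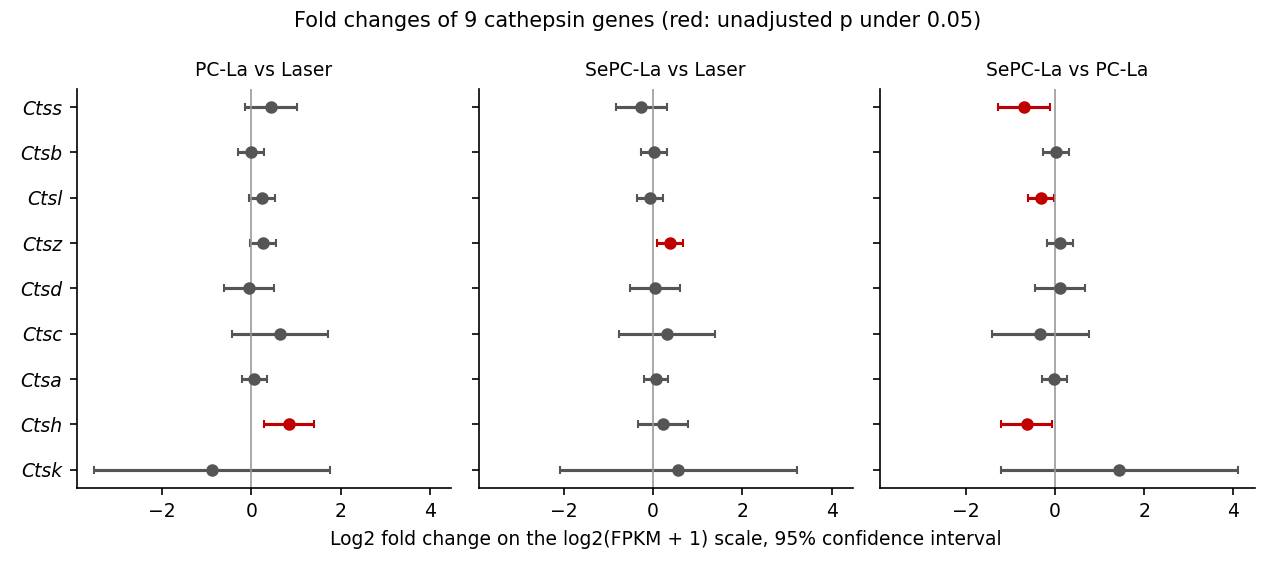
Log2 fold change of the 9 cathepsins tested, on the log2(FPKM + 1) scale, with 95% confidence intervals from limma (n = 2 samples a group) for the 3 comparisons. Red marks unadjusted p under 0.05, reached by Ctsh for PC-La against Laser, Ctsz for SePC-La against Laser and Ctss, Ctsl and Ctsh for SePC-La against PC-La.

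SePC-La against PC-La compares the selenium-enriched protein with the plain one at the same light. Ctsh, Ctsl and Ctss were lower and 0 of the 9 were higher, where 14.4% of all genes were lower and 9.91% higher. These 3 genes were also those without overlap in the lower direction, and Ctsz was the 1 without overlap in the higher direction, against 39.5% and 26% of all genes. The median of the 9 was -0.01, which turned to 0.09 under median-ratio scaling, against -0.07 over all genes. None of the 9 met the study's criterion, which 2.98% of genes met, and the smallest adjusted p among the 9 was 0.164 (limma). Without either PC-La sample 0 were called, and without SePC-La replicate 1 the call was Ctsk in place of the 3.

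The direction of calls over all genes depended on scaling. Of the 2637 genes with unadjusted p under 0.05 for SePC-La against PC-La, 40.8% were higher, against 58.2% after median-ratio scaling and 52.1% after quantile normalization. For SePC-La against Laser, 40.4% of 1318 were higher, against 63.9% and 53.3%, and for PC-La against Laser 58.5% of 627.

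Several macrophage and dendritic cell markers were, like Ctss, Ctsl and Ctsh, lower in SePC-La than in PC-La tumors. Summed over 12 macrophage markers, FPKM was 1082 and 1015 (Laser), 1459 and 1432 (PC-La) and 511.4 and 1033 (SePC-La). Of these markers 5 of 12 were lower in SePC-La than in PC-La and 0 were higher, beside the 14.4% and 9.91% of all genes. The log2 difference was -1.01 for C1qa and -1.44 for Apoe, which passed, while Cd68 (0.31), Mrc1 (0.28) and Cd163 (0.61) had values above 0 that did not pass. Both C1qa and Apoe were lowest in SePC-La replicate 1, at 118 FPKM, and values without that sample are not given. In the comparisons with Laser 0 of the 12 passed in either direction. Dendritic cell markers summed to 19.6 and 12.96 FPKM (Laser), 25.3 and 31.9 (PC-La) and 14.7 and 16.9 (SePC-La). Of the 3 tested, 2 (Itgax and Clec9a) were lower in SePC-La than in PC-La. Flt3, Zbtb46 and Xcr1, at means of 0.493, 0.373 and 0.344 FPKM, were below the minimum for testing. Neutrophil markers moved the other way, at 151.6 and 39.7 (Laser), 146.3 and 78.7 (PC-La) and 337.8 and 440.5 (SePC-La). In SePC-La, 3 of 6 were higher than in Laser (S100a8, S100a9 and Retnlg) and 3 of 6 higher than in PC-La (S100a8, Retnlg and Mmp8). Over all genes 4.9% and 9.91% were higher in these comparisons. The part of these cells in the cathepsin values was not tested.

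**Figure D4:**
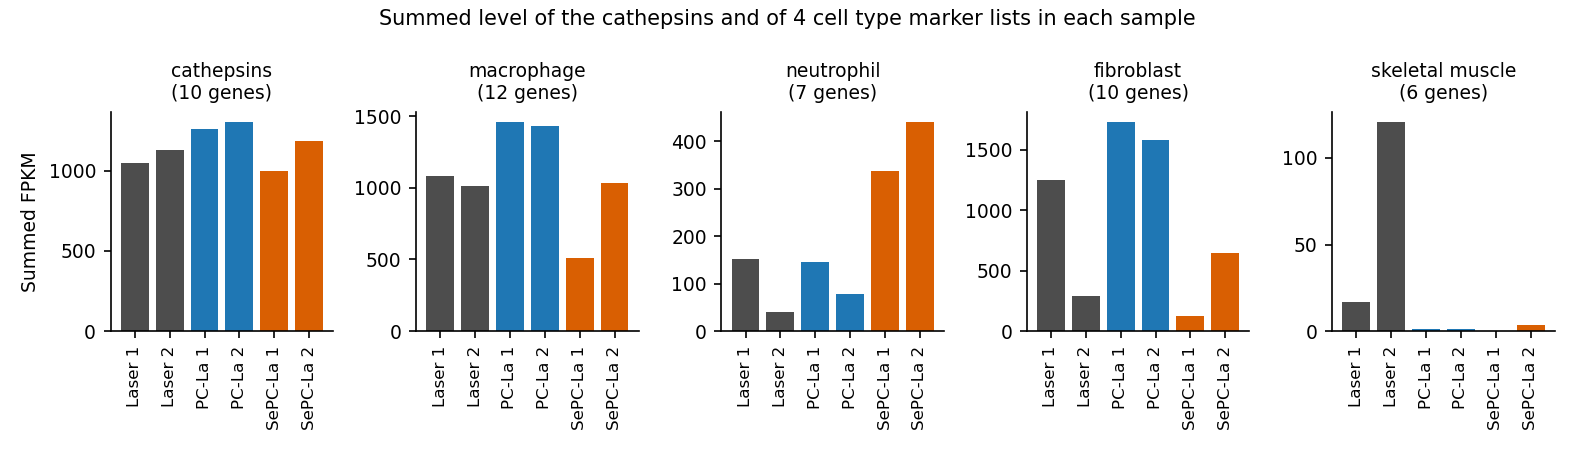
Summed FPKM in each of the 6 tumor samples for the 10 cathepsins and for lists of 12 macrophage, 7 neutrophil, 10 fibroblast and 6 skeletal muscle markers, with bars starting at 0. The cathepsin sum spans 998.9 to 1303 FPKM, while the fibroblast sum spans 126.2 to 1730 and the muscle sum is high in Laser replicate 2 alone (120.8).

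Other marker lists had fewer calls. Fibroblast markers summed to 1252 and 292.1 FPKM (Laser), 1730 and 1582 (PC-La) and 126.2 and 646.6 (SePC-La), with 1 of 10 (Fap) lower in SePC-La than in PC-La. Of 5 endothelial markers tested 2 were higher in SePC-La than in Laser, and of 3 T and NK cell markers tested 0 passed. In contrast, the 5 skeletal muscle markers tested were all lower in both photosensitizer groups than in Laser, where replicate 2 carried most of their sum. They reached the minimum mean of 1 FPKM only through the Laser samples. Ckm, for example, was at 0.721 and 7.16 FPKM in Laser and at 0.216 FPKM or less elsewhere. Their being lower elsewhere was thus largely set by that filter, and no conclusion is drawn from it. Over all genes 14.4% were lower in SePC-La than in PC-La. Against Laser, 4.9% were higher and 7.24% lower in SePC-La, and 2.4% were lower in PC-La. Ly6g, a defining neutrophil marker, was at a mean of 0.456 FPKM.

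Most class II partners of cathepsin S were higher in PC-La than in either other group. Cd74, the invariant chain on which cathepsins S, L and F act, was at 194 and 55.3 FPKM (Laser), 475 and 599 FPKM (PC-La) and 182 and 141 FPKM (SePC-La). The PC-La samples were the highest and did not overlap with either other group. Its log2 difference was 2.35 for PC-La against Laser (unadjusted p = 0.00831, adjusted p = 0.682) and -1.73 for SePC-La against PC-La (limma, unadjusted p = 0.0278, adjusted p = 0.169). Of the 4 partners tested, 3 (Cd74, H2-DMa and H2-DMb1) were higher in PC-La than in Laser and lower in SePC-La than in PC-La, each past the study's criterion. Over all genes 1.29% and 2.98% met that criterion in these comparisons. H2-DMa and H2-DMb1 encode chains of the peptide-exchange molecule H2-DM, and Ifi30, a lysosomal thiol reductase at 57.9 to 83.5 FPKM, did not pass. The Cd74 and H2-DMb1 calls for SePC-La against PC-La were lost in 4 of the 6 fits that left out a sample each, and the Cd74 call for PC-La against Laser in 1 of 6.

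Among 13 other genes of the cathepsin family, 8 were listed at 0 in all samples and 2 passed the minimum, Ctso and Ctsw. Ctso (cathepsin O) was at 15 and 6.28 FPKM (Laser), 16.2 and 14.9 FPKM (PC-La) and 3.31 and 8.51 FPKM (SePC-La). The SePC-La samples lay below both PC-La samples, a log2 difference of -1.37 (limma, unadjusted p = 0.037, adjusted p = 0.187) that met the study's criterion. Leaving out single samples gave values of -1.94 to -0.80 and kept the call in 3 of 6 fits. Ctsw, the cathepsin of cytotoxic lymphocytes, was at 0.751 to 3.2 FPKM and passed in none of the 3 comparisons.

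The inhibitors Cst3 and Cstb were at levels like those of the most abundant cathepsins. Cst3 (cystatin C, the secreted inhibitor) was at 198 and 219 FPKM (Laser), 259 and 246 FPKM (PC-La) and 176 and 245 FPKM (SePC-La). Cstb (cystatin B, the cytosolic inhibitor) was at 174 and 272 FPKM (Laser), 181 and 174 FPKM (PC-La) and 235 and 249 FPKM (SePC-La). Neither passed in any comparison, with Cst3 at -0.28 and Cstb at 0.44 for SePC-La against PC-La, although both SePC-La values of Cstb were above both PC-La values. Of the 6 inhibitors tested out of 11, Serpina3g was higher in PC-La than in Laser, and Stfa2l1, a stefin A family gene, was higher in SePC-La than in both other groups, against PC-La by 1.77 on the log2 scale (limma, unadjusted p = 0.0128, adjusted p = 0.14). Stefin A genes are known from neutrophils, and Stfa2l1 was at 4.86 and 2.7 FPKM (Laser), 4.73 and 1.59 FPKM (PC-La) and 8.76 and 16.7 FPKM (SePC-La). Its call against Laser was lost without Laser replicate 2 (1.16) and without SePC-La replicate 2 (1.07), and that against PC-La without SePC-La replicate 2 (1.34). Lgmn (legumain), a lysosomal protease that processes several cathepsin precursors, was at 123 to 165 FPKM.

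Other genes linked to the lysosome were counted over 8 lists, including that of the cathepsin inhibitors above, with 81 of 88 genes tested. For SePC-La against PC-La 21 (25.9%) were lower and 4 (4.94%) higher, beside the 14.4% and 9.91% of all genes. Those lower included 5 of 14 membrane genes, 5 of 15 glycosidases and 6 of 15 lipases, sulfatases and activators, against 1 of 15 subunits of the proton-pumping vacuolar ATPase. The median log2 difference over the 8 lists was -0.17, below the -0.07 of all genes. The count of 21 lower became 7 without PC-La replicate 1 and 8 without SePC-La replicate 1. Against Laser, 6 (7.41%) of the 81 were higher and 0 lower in PC-La, and 2 (2.47%) were higher and 8 (9.88%) lower in SePC-La. Beside these stand 3.38% and 2.4% of all genes for PC-La and 4.9% and 7.24% for SePC-La. The inhibitors Serpina3g (PC-La against Laser) and Stfa2l1 (SePC-La against both other groups) are among those counted as higher. Under median-ratio scaling the counts were 6 higher and 6 lower for SePC-La against Laser and 7 higher and 15 lower for SePC-La against PC-La.

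**Figure D5:**
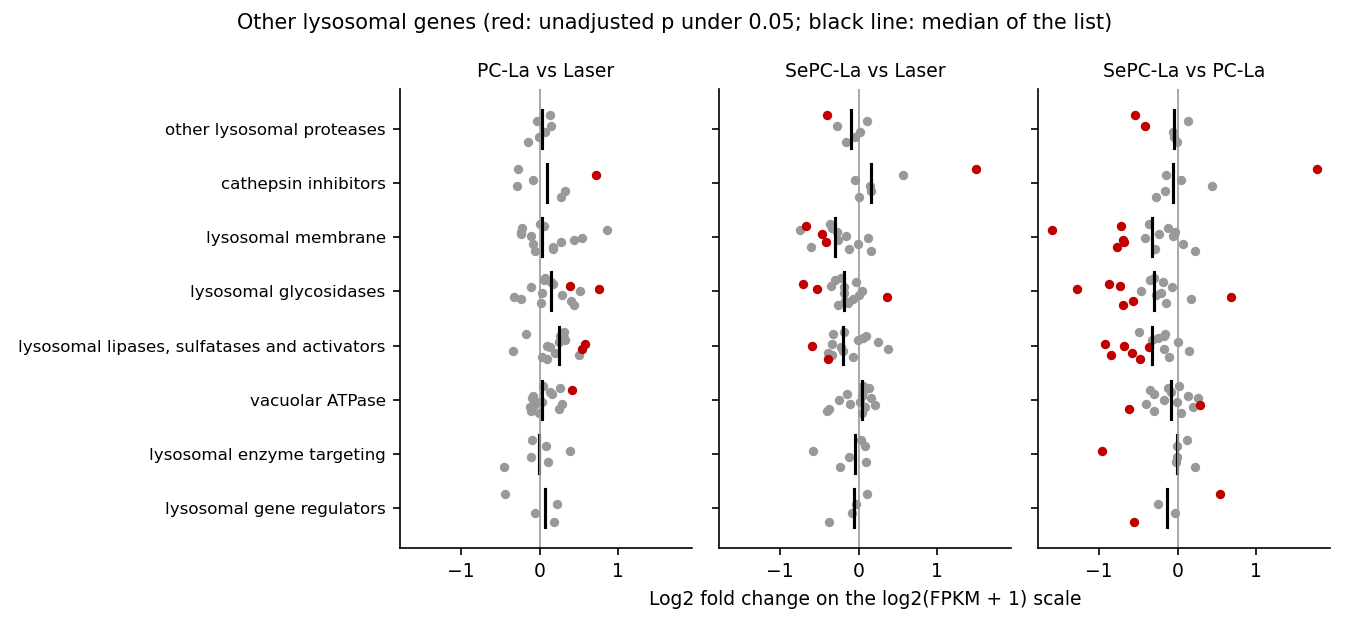
Log2 fold change of each gene tested in 8 lists of lysosomal genes and cathepsin inhibitors, on the log2(FPKM + 1) scale, for the 3 comparisons. Red marks unadjusted p under 0.05 (limma) and a black line the median of a list. For SePC-La against PC-La, 21 of the 81 genes are lower and 4 higher, and the medians of the membrane, glycosidase and lipase lists lie at -0.33, -0.30 and -0.32.

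Both counts against Laser moved with single samples. The 6 higher in PC-La became 18 without Laser replicate 1, 1 without Laser replicate 2 or without PC-La replicate 2, and 3 without PC-La replicate 1. The 8 lower in SePC-La became 13 without Laser replicate 2, 16 without SePC-La replicate 2, 5 without either PC-La sample and 3 without SePC-La replicate 1.

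Scarb2, the membrane receptor that carries glucocerebrosidase to lysosomes, was at 42.6 and 19.9 FPKM (Laser), 58.4 and 49.1 FPKM (PC-La) and 11.8 and 24 FPKM (SePC-La), and the difference between SePC-La and PC-La, at a limma adjusted p of 0.143, met the study's criterion but lost its call without PC-La replicate 1 or SePC-La replicate 1. The most abundant genes of the lists were Psap, the saposin precursor (414 to 561 FPKM), Laptm4a (157 to 299 FPKM), Grn (134 to 160 FPKM), Atp6v1g1 (77.7 to 106 FPKM), Hexa (30.1 to 56.8 FPKM) and Tfe3 (3.99 to 4.84 FPKM), each first in its own list. Of these Laptm4a was lower in SePC-La than in PC-La (-0.70, limma adjusted p = 0.134).

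The genes outside these lists whose log2 level followed the summed cathepsins most closely included Cd52, Pycrl, S100a1 and Usp25, with Pearson correlations of 0.99, 0.98, 0.98 and 0.97 over the 6 samples among 4924 genes whose mean reached 10 FPKM. Cd52, a surface glycoprotein of leukocytes, was at 25.7 and 33.1 FPKM (Laser), 50 and 53.8 FPKM (PC-La) and 24.4 and 41.5 FPKM (SePC-La). These values describe 6 shared libraries.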

How the data were processed

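RNA was extracted with Trizol and sequenced on Illumina libraries (NEBNext Ultra II kit) in 6 tumor samples, 2 in each of 3 groups, with the group taken from the title of each sample. The deposited table holds FPKM values for 21899 genes, made by the authors from aligned reads, with no replicates pooled. The submitters' processing notes name HISAT2 2.0.5, HTSeq 0.9.1, DESeq 1.30.0 and the build mm9, without their roles, and a strand setting is not given in the sources used here. The unit was settled by multiplying each value with the exon length of GENCODE on GRCm38, which gave whole reads in all samples, within 0.02 reads, for 97.77% of expressed genes. Recovered totals were 14447792 to 17649489 reads, and low genes such as Ctsf rest on few of them.

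The 10853 genes whose mean reached 1 FPKM were tested on the scale of log2(FPKM + 1) by limma (version 3.58.1, R version 4.3.3), with a mean per group over all 6 samples, empirical Bayes moderation with trend and robust settings (6.398 degrees of freedom in all), two-sided p-values and Benjamini-Hochberg adjustment over all genes. The study's criterion, an absolute log2 fold change above 1 and p under 0.05, was applied as well. The fit was tested on simulated data.

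All 10 cathepsins are named. From the other lists were named the most abundant gene, those past the study's criterion and the known partners of cathepsins, and from outside the lists the 5 genes most alike in pattern. A few genes that this rule names are not reported here. Other genes, such as those that make up a small count of calls, were named after their values were seen. The cathepsins and lists were chosen with earlier results of these data known. Alternatives changed the pseudocount (0.1), the minimum (none or 5 FPKM), the scaling, the trend, the samples fitted and the replicate block, used voom on the recovered reads, and left out each sample. Those for other lysosomal genes were added after the data were seen.

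The labels and the study's methods differ in wavelength and injection interval, and the labels' values are given. Promoter windows came from RefSeq on GRCm38.p6.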

Additional observations from a re-analysis of the deposited data

How the results depend on the processing

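Ctsh for PC-La against Laser kept its call in the 9 other settings and its direction in the 6 fits with a sample left out. Of the single-gene values under the 9 other settings, 228 kept direction and call, 6 lost and 2 gained a call, and 7 reversed. Most of these values were not called in the main fit. Changing the minimum, the trend, the replicate block or the samples fitted left each log2 difference as it was and could alter only its p-value. With a sample left out, 17 values reversed. Quantile normalization reversed Ctsa (-0.012), Ctsb (-0.19) and Ctsd (-0.074) for SePC-La against Laser and Ctsb (-0.11) and Ctsz (-0.052) for SePC-La against PC-La. Median-ratio scaling reversed Ctsl (0.0065) for SePC-La against Laser and Ctsa (0.091) for SePC-La against PC-La. When a fit held only its own 4 samples, 2 cathepsins were called for PC-La against Laser and 0 for SePC-La against Laser. The count for SePC-La against PC-La was 1 under median-ratio scaling (Ctsh). The cause was not tested.

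Samples with the same replicate number did not vary together (correlations of deviations 0.09, -0.43 and -0.18), so the numbers are not taken to pair them. With the replicate block the count for SePC-La against PC-La was 1 (Ctss), and over all genes calls fell from 2637 to 2026, from 1318 to 938 for SePC-La against Laser and from 627 to 452 for PC-La against Laser. For SePC-La against PC-La, a fit of these groups alone or without a Laser sample called 637 to 643 genes after adjustment (limma). Without Laser replicate 1 it called 312 and 97 for PC-La and SePC-La against Laser.

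Leaving out each sample in turn gave counts of 1 to 3 (PC-La against Laser), 0 to 3 (SePC-La against Laser) and 0 to 3 (SePC-La against PC-La). The median log2 difference was -0.044 to 0.37 for SePC-La against Laser, highest without SePC-La replicate 1, and -0.22 to 0.021 for SePC-La against PC-La, lowest without SePC-La replicate 2. For PC-La against Laser, Ctsb was -0.022 to 0.019 and Ctsd -0.20 to 0.077. For SePC-La against Laser, Ctsb was -0.044 to 0.093, Ctsc -0.31 to 0.94, Ctsd -0.28 to 0.37, Ctsh -0.059 to 0.49, Ctsk -0.96 to 2.09 and Ctss -0.60 to 0.074. For SePC-La against PC-La, Ctsa was -0.048 to 0.021, Ctsb -0.042 to 0.094, Ctsd -0.22 to 0.43 and Ctsk -0.083 to 2.97. With 2 samples a group, the lone sample of a reduced group was assumed to vary like the others.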

Other observations

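Some lysosomal genes, named here after their values were seen, differed between SePC-La and both other groups. Tpcn1, a calcium and sodium channel of the lysosomal membrane, was at 24.1 and 25.6 FPKM (Laser), 26.8 and 25.1 FPKM (PC-La) and 14.6 and 16 FPKM (SePC-La). Both SePC-La samples were below the other 4, with a log2 difference of -0.73 against PC-La and -0.67 against Laser. Lamp2, a major glycoprotein of that membrane, was at 35.6 and 36.2 FPKM (Laser), 43.4 and 43.5 FPKM (PC-La) and 23.5 and 30.4 FPKM (SePC-La), and the SePC-La samples were again the lowest. Gla, alpha-galactosidase A, stood on the other side, at 6.76 and 8.28 FPKM (Laser), 5.82 and 5.71 FPKM (PC-La) and 10.1 and 9.61 FPKM (SePC-La). These 3 genes passed an unadjusted p under 0.05 in both comparisons with SePC-La, and none passed after Benjamini-Hochberg adjustment in limma. Others passed in both as well, among them Tpp1, Manba, Ids and Acp2 as lower and Stfa2l1 as higher. Over all genes 14.4% were lower and 9.91% higher in SePC-La than in PC-La, and 7.24% lower and 4.9% higher than in Laser.

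Among the factors of the TFEB family, which regulate lysosomal genes, Mitf was lower (-0.56) and Tfec higher (0.54) in SePC-La than in PC-La by the same unadjusted test. Mitf was at 3.21 and 3.82 FPKM (Laser), 4.59 and 3.69 FPKM (PC-La) and 2 and 3.01 FPKM (SePC-La). Tfec was at 1.15 and 1.34 FPKM (Laser), 0.526 and 0.8 FPKM (PC-La) and 1.36 and 1.46 FPKM (SePC-La). In both genes the SePC-La and PC-La samples did not overlap, where 39.5% of all genes were lower and 26% higher without overlap. By the unadjusted test 14.4% of all genes were lower and 9.91% higher. Tfeb (-0.25) and Tfe3 (-0.03), of the same family, did not pass.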
